A study of Homo sapiens with 12 samples.

Results

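The genes described here build or organise the hyaluronan-based matrix that surrounds neurons: the hyaluronan synthases HAS2 and HAS3, the tenascins TNC and TNR, the lecticans VCAN, ACAN, BCAN and NCAN, and the link proteins HAPLN1 and HAPLN4. They are 10 of the 55765 gene symbols counted in each library. They were chosen by name as a matrix family and selected on their measured response, HAS2 for higher and TNC for lower counts after H2O2 in both experiments, so treated and control values of all 10 are given below as a description without a test. RNA came from SH-SY5Y, a human neuroblastoma line that is a single subclone of SK-N-SH and takes on neuronal features when given all-trans retinoic acid (ATRA). In the co-treatment experiment, 3 cultures received H2O2 together with 10 μM ATRA for the 7 days of differentiation, and 3 control cultures received ATRA without H2O2. In the pre-treatment experiment, 3 cultures received H2O2 for 72 h and then 7 days of ATRA, and 3 control cultures received ATRA without the earlier H2O2. All 12 cultures therefore had ATRA, no undifferentiated culture was analysed here, and the H2O2 dose is 10 mM in the deposited description but 10 μM in the study's methods.

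Hyaluronan is a long unbranched sugar polymer that hyaluronan synthases make at the plasma membrane and extrude as it grows. Lecticans are chondroitin sulfate proteoglycans that bind hyaluronan at one end and tenascins at the other, and link proteins lock the lectican onto the hyaluronan strand. In the nervous system, tenascin-R and the lecticans are known for perineuronal nets and for the matrix around nodes and synapses, while tenascin-C and versican are prominent in developing tissue.

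Libraries held 27576276 to 98287391 reads on genes. Replicates of a group differed by far more than counting error (chi-square over degrees of freedom at least 27.6 for each pair), so no library repeats another. Control replicate 3 of the pre-treatment experiment differed in composition from controls 1 and 2. It held 0.2 reads outside genes per read on genes, against 0.8 and 0.83 in controls 1 and 2. The pre-treated libraries had 0.343 to 0.462 and the co-treatment libraries 0.263 to 0.429. Small structured RNAs took 17.6% of the gene reads of control 3, against 1.58% and 2.87% in controls 1 and 2. Their share was 13.3% to 15% in pre-treated and 5.04% to 13% in co-treatment libraries. Controls 1 and 2 thus had the most reads outside genes and the least small RNA of all libraries, and control 3 the reverse. On both measures control 3 was nearer to the pre-treated libraries than controls 1 and 2 were. Which controls are the unusual ones cannot be told from these values. The study's clustering shows controls 1 and 2 only. Each pre-treatment log2FC of the 7 genes that could be tested is therefore given against controls 1 and 2 (5 libraries) and against all 3 controls (6 libraries). Neuronal markers were strongly expressed in every group (8 genes, summed level 2623 to 3748 CPM, counts scaled to the library's size), with STMN2 the most abundant of them. In bulk RNA, fewer cells of a type and less RNA per cell cannot be told apart.

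Of the 10 genes, 7 passed the filter on low counts in every comparison. ACAN, HAPLN1 and HAPLN4 did not, and had 44, 4 and 2 reads in all over the 12 libraries. Levels between genes were compared as CPM per kb of exon. TNR (25.5 ± 15 CPM per kb, SD, n = 12) and VCAN (23.4 ± 12.2) led and did not differ beyond their spread. NCAN (4.44 ± 1.74) and BCAN (2.04 ± 0.515) followed. HAS3 (0.939 ± 0.249) and TNC (0.702 ± 0.367) also lay within each other's spread, and HAS2 had 0.119 ± 0.097 CPM per kb. These spreads pool treated and control libraries of both experiments. In co-treated cells HAS3 had 0.79 to 1.11 and TNC 0.356 to 0.376 CPM per kb, so HAS3 was higher there. The ranges of HAS3 and TNC overlapped in the other groups. On the CPM scale, VCAN and TNR stood at the 99.2 and 99.2 percentiles of the 42536 symbols with any read, TNC at the 73.3 and HAS2 at the 57.2 percentile. The family in these cells was thus mainly VCAN and TNR, with NCAN the next lectican and almost no aggrecan or link protein 1 or 4 message.

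**Figure D1:**
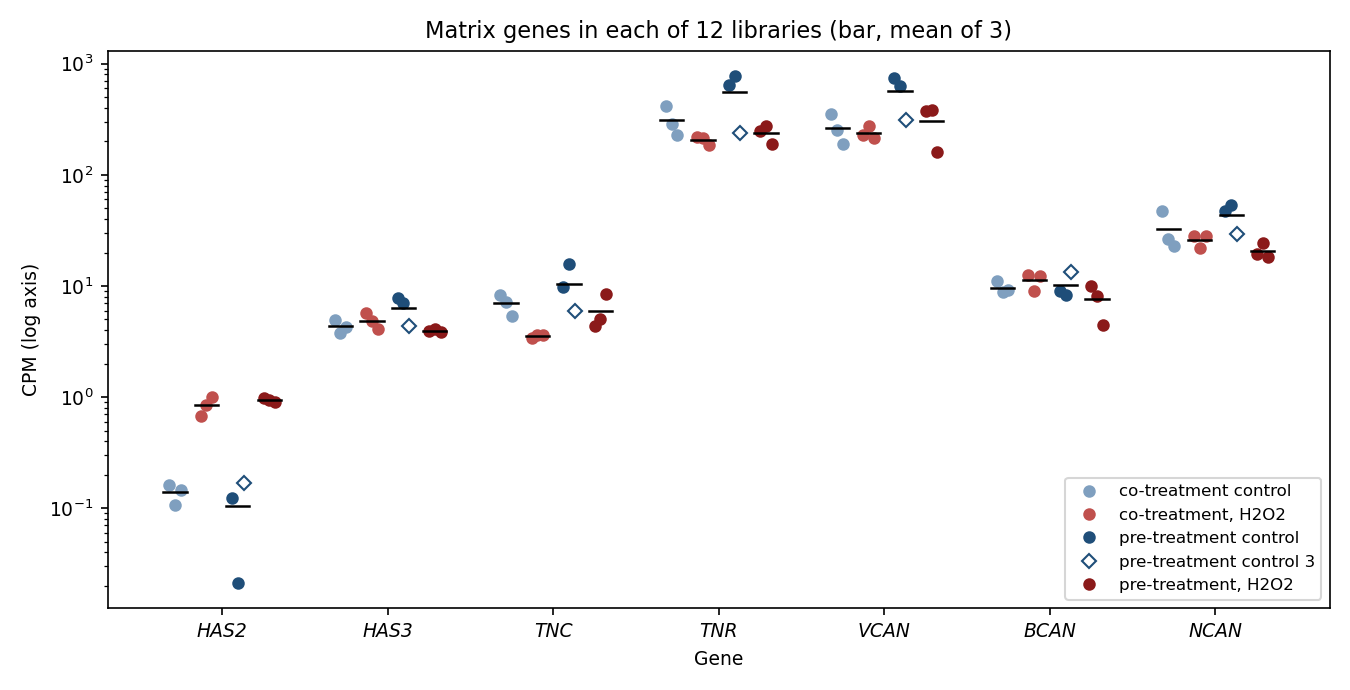
CPM of the 7 genes that passed the filter, on a log axis, in each of the 12 libraries, with a bar at the mean of 3; the open diamond is pre-treatment control 3. All 6 HAS2 values after H2O2 (0.675 to 0.993 CPM) lie above all 6 control values (0.0214 to 0.17 CPM), and control 3 lies near the treated libraries for TNC, TNR and VCAN.

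HAS2, on the minus strand of chromosome 8, encodes the synthase that makes very long hyaluronan chains. It was scarce in control cells and higher in every library that had received H2O2. In the co-treatment controls it had 8, 5 and 5 reads, or 0.163, 0.107 and 0.146 CPM. In the co-treated cells it had 19, 53 and 51 reads, or 0.675, 0.855 and 0.993 CPM. The lowest treated library was thus above the highest control. The log2 fold change (log2FC) of the fit was 2.59 (standard error 0.48), or 6.02-fold. Pre-treatment controls 1, 2 and 3 had 7, 1 and 11 reads (0.124, 0.0214 and 0.17 CPM), and the pre-treated libraries 94, 64 and 71 reads (0.982, 0.947 and 0.896 CPM). The pre-treatment groups did not overlap either, with or without control 3. The log2FC was 3.62 (0.58) against controls 1 and 2, which rests on 8 control reads, and 3.10 (0.61) against all 3 controls. Without control 1 the first of these values was 5.39 and without control 2 it was 2.94, so its size depends on which sparse control is used while its sign does not. In the co-treatment experiment the log2FC ran from 2.42 to 2.74 with each library left out in turn.

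HAS2 shares 2148 bases of hg19 with the antisense gene HAS2-AS1, 251 of them exonic in both, and the strand setting of the counting is not given in the sources used here. HAS2-AS1 had 6 reads in co-treated replicate 3, 2 and 11 in pre-treated replicates 2 and 3, 1 and 2 in pre-treatment controls 2 and 3, and 0 in the other 7 libraries. Its reads were thus fewer than those of HAS2 in all treated libraries.

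HAS3 (chr16:69139556-69152622, hg19, plus strand), whose enzyme makes shorter chains, was the main synthase message in every library. In the co-treatment controls it had 4.9, 3.79 and 4.28 CPM and after co-treatment 5.76, 4.79 and 4.11 CPM. The groups overlapped, with a log2FC of 0.17 (0.21). Pre-treatment controls had 7.77, 6.97 and 4.32 CPM and pre-treated cells 3.95, 4.09 and 3.86 CPM, so all treated libraries lay below all controls. The log2FC was -0.87 (0.18) over 5 libraries and -0.68 (0.27) over 6, control 3 being the control nearest to the treated level. HAS1, the remaining synthase, had 0 to 11 reads in a library and was not tested.

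The share of HAS2 in the reads of HAS1, HAS2 and HAS3 together does not depend on the scaling between libraries. It was 3.23% (95% exact binomial interval 1.4% to 6.26%), 2.66% (0.869% to 6.1%) and 3.27% (1.07% to 7.46%) in the co-treatment controls. After co-treatment it was 10.3% (6.3% to 15.6%), 15% (11.4% to 19.1%) and 19.4% (14.8% to 24.7%). Pre-treatment controls had shares of 1.56%, 0.304% and 3.64%, and pre-treated libraries had 19.6%, 18.8% and 18.7%. Every treated library was thus above every control, and the 3 pre-treated libraries differed by less than their counting error. Per kb of exon, HAS3 stayed above HAS2 in all libraries, by 20.8 to 265 times in controls and by 3.28 to 6.95 times after H2O2. The intervals cover counting error only, since reads without molecular identifiers are not independent molecules.

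**Figure D2:**
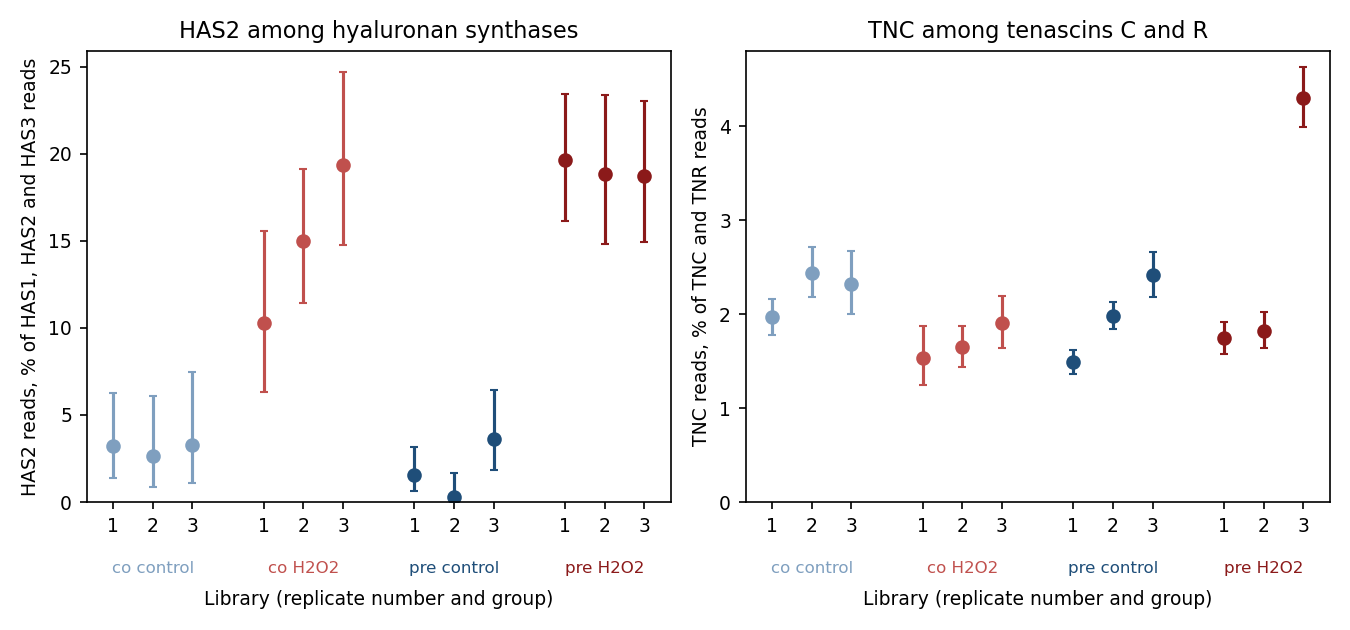
HAS2 reads as a percentage of HAS1, HAS2 and HAS3 reads (left) and TNC reads as a percentage of TNC and TNR reads (right) in each library, with 95% exact binomial intervals. HAS2 shares are 0.304% to 3.64% in controls and 10.3% to 19.6% after H2O2, whereas TNC shares of controls and pre-treated libraries overlap and pre-treated replicate 3 is highest at 4.3%.

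TNC (chr9:117781854-117880486, hg19, minus strand) encodes tenascin-C, a large glycoprotein of growing and injured tissue that binds integrins and lecticans. Co-treatment controls had 8.36, 7.12 and 5.39 CPM, and co-treated cells had 3.41, 3.58 and 3.6 CPM. The groups did not overlap, and the treated libraries were much closer to each other than the controls were. The log2FC was -0.98 (0.21) and ran from -1.13 to -0.82 with each library left out. Pre-treatment controls 1 and 2 had 9.76 and 15.6 CPM, control 3 had 5.94 CPM, and pre-treated cells had 4.37, 5.09 and 8.46 CPM. Treated libraries were below controls 1 and 2, but control 3 lay inside the treated range. The log2FC was -1.06 (0.31) over 5 libraries and -0.80 (0.39) over 6. Without control 2, the highest library, the first of these was -0.68. Against control 3 alone, the mean of the pre-treated libraries was 1.01 times the control level.

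TNR (chr1:175284330-175712731, hg19, minus strand) encodes tenascin-R, a neural tenascin that cross-links lecticans in perineuronal nets. Its co-treatment controls had 417, 285 and 227 CPM and co-treated cells 218, 214 and 185 CPM. The lowest control (227 CPM) was just above the highest treated library (218 CPM), and the log2FC was -0.59 (0.19). Without control 1 the log2FC was -0.31. In the pre-treatment experiment, controls had 646, 774 and 240 CPM and treated cells 246, 275 and 188 CPM. The log2FC was -1.56 (0.17) against controls 1 and 2 and -1.22 (0.40) against all controls, and control 3 was again within the treated range. TNC made up 1.97% to 2.44% of TNC and TNR reads in co-treatment controls and 1.54% to 1.91% after co-treatment, so the shares did not overlap. In the pre-treatment experiment these shares were 1.49% to 2.41% in controls and 1.74%, 1.82% and 4.3% in treated libraries, which overlapped, with pre-treated replicate 3 the highest of all 12.

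VCAN (chr5:82767437-82878122, hg19, plus strand) encodes versican, the widely expressed large lectican. Co-treatment controls had 351, 252 and 190 CPM and co-treated cells 228, 275 and 215 CPM, with full overlap and a log2FC of -0.14 (0.20). Without control 1, the highest of the 6, the log2FC was 0.12. Pre-treatment controls had 751, 631 and 310 CPM and treated cells 375, 381 and 161 CPM. The groups overlapped only through control 3. The log2FC was -1.15 (0.32) over 5 libraries and -0.88 (0.41) over 6. Pre-treated replicate 3 was the lowest library of all 12, and without it the first value was -0.88. VCAN-AS1, an antisense gene that lies within VCAN on the other strand and shares 453 exonic bases with it, had 91 and 70 reads in controls 1 and 2, 7 in control 3 and 37, 18 and 17 in pre-treated libraries. It also differed between treated and control cells in the test across all genes (log2FC -2.38, FDR 0.00387, edgeR's quasi-likelihood test) over 5 libraries, but not over 6 (FDR 0.452). How reads over the shared exons were assigned to the 2 genes cannot be told without the strand setting. Reads outside genes were also highest in controls 1 and 2 (0.8 and 0.83 per read on genes) and lowest in control 3 (0.2). A link between these reads and VCAN-AS1 was not tested.

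NCAN (chr19:19322767-19363042, hg19, plus strand) encodes neurocan, a lectican of the nervous system. It had 47.4, 26.5 and 23.1 CPM in co-treatment controls and 28, 22.1 and 28.4 CPM in co-treated cells. These overlapped, with a log2FC of -0.31 (0.23) that was 0.08 without control 1. In the pre-treatment experiment, controls had 47.7, 53.9 and 29.3 CPM and treated cells 19.4, 24.6 and 18.4 CPM. Here all treated libraries were below all controls, control 3 included. The log2FC was -1.26 (0.15) over 5 libraries and -1.07 (0.25) over 6, and it ran from -1.39 to -1.17 with each of the 5 libraries left out.

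BCAN (chr1:156611182-156629324, hg19, plus strand) encodes brevican, the shortest lectican. It had 11.1, 8.75 and 9.12 CPM in co-treatment controls against 12.6, 9.02 and 12.4 CPM in co-treated cells, and 8.98, 8.32 and 13.4 CPM in pre-treatment controls against 10, 8.2 and 4.43 CPM in pre-treated cells. The groups overlapped in both experiments, with a log2FC of 0.23 (0.18) after co-treatment and of -0.17 (0.31) and -0.44 (0.33) after pre-treatment. Unlike TNR, VCAN and NCAN, BCAN was higher in control 3 than in controls 1 and 2, by 1.55 times their mean.

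ACAN (chr15:89346667-89418584, hg19, plus strand), the gene of aggrecan, the main cartilage and net lectican, had 10, 1 and 0 reads in co-treatment controls, 1, 9 and 1 in co-treated cells, 2, 2 and 0 in pre-treatment controls and 6, 2 and 10 in pre-treated cells. These counts overlapped in both experiments and no fold is given. VCAN took 84% to 93% of all lectican reads in each of the 12 libraries.

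HAPLN1 (chr5:82933624-83016674) and HAPLN4 (chr19:19365565-19373613), both on the minus strand of hg19, lie next to lectican genes: HAPLN1 is 55.5 kb from VCAN and HAPLN4 is 2.52 kb from NCAN. HAPLN1 had 1 read in pre-treatment control 1, 1 in pre-treated replicate 1 and 2 in pre-treated replicate 3, and none in the other 9 libraries. HAPLN4 had 1 read in a control of each experiment and none in the other 10 libraries. A count of 0 allows up to 3 reads, or 0.0313 to 0.107 CPM depending on the library. The neighbours of BCAN and ACAN were better expressed, HAPLN2 with 13 to 90 reads and HAPLN3 with 189 to 565 reads in a library, and neither passed the test across all genes in any comparison (smallest FDR 0.0522, HAPLN2 over the 5 pre-treatment libraries).

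Across the 3 fits, calls (FDR under 0.05 with an absolute log2FC over 0.6 after co-treatment or over 1 after pre-treatment, edgeR's quasi-likelihood test) are counted only as a description, since the genes were selected on these contrasts. After co-treatment, 1 of 7 was called higher (HAS2) and 0 lower, where 0.598% of 22089 genes were called (0.335% higher and 0.263% lower). TNC and TNR, which with HAS2 had an unadjusted p under 0.05, as did 1801 of all genes tested, did not pass. DESeq2 and the exact test called HAS2 and TNC, but their totals over all genes in this comparison are not given here. These calls are therefore not read as a result about the 2 genes. HAS2 missed the call without control 2 (log2FC 2.42), control 3 (2.62), treated 1 (2.71), treated 2 (2.58) or treated 3 (2.45), and kept it without control 1. Groups did not overlap for HAS2, TNC and TNR, 3 of the 7, against 14% of the genes tested. Over the 5 pre-treatment libraries, HAS2 was called higher and TNC, TNR, VCAN and NCAN lower, 5 of 7, where 11.2% of 26350 genes were called (2.98% higher and 8.23% lower). The groups did not overlap for 6 of the 7, against 57.7% of genes. TNC missed the call without control 2, treated 1 or treated 2 (-0.68, -0.88 and -0.96), and VCAN without control 1, control 2 or treated 3 (-0.999, -1.27 and -0.88). Over all 6 pre-treatment libraries 0 of 7 were called, against 0.0242% of 24743 genes. An unadjusted p under 0.05 was found for 4 of the 7 and for 2776 of all genes tested. The exact test called 2 of the 7 and DESeq2 called 3, and their totals over all genes are not given here. HAS2, HAS3 and NCAN did not overlap, against 16.4% of genes.

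**Figure D3:**
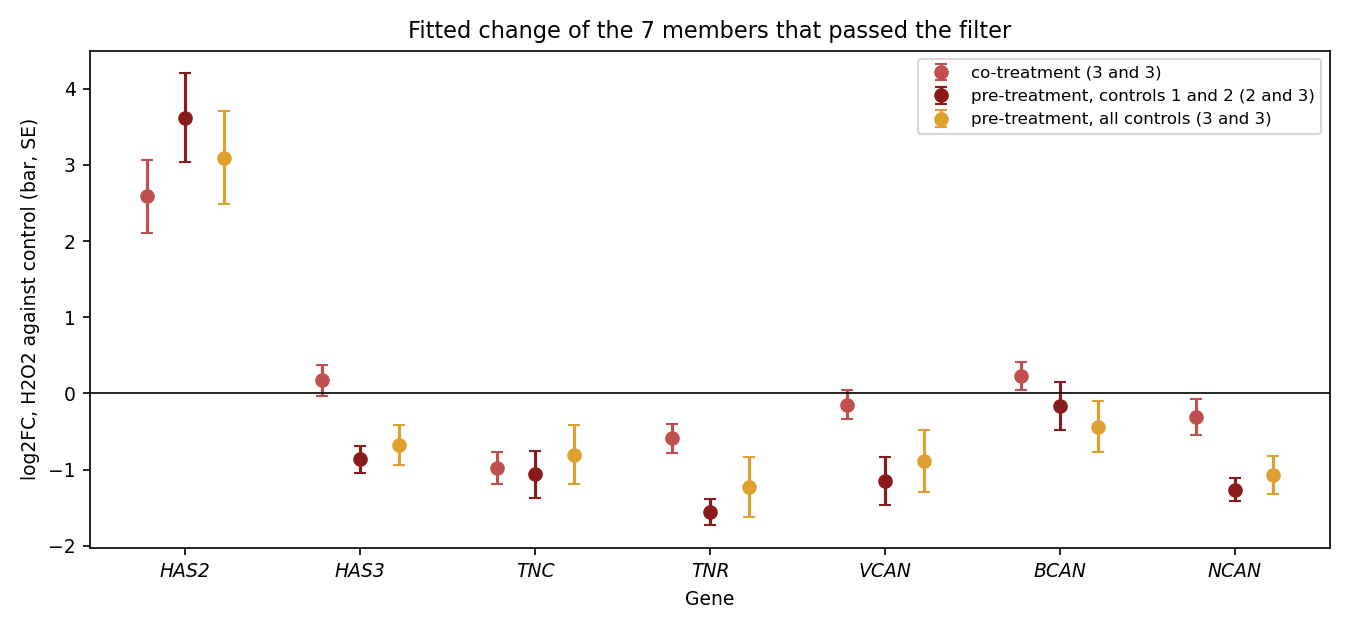
Fitted log2FC of treated against control cells, with the standard error, for the 7 genes after co-treatment (3 and 3 libraries) and after pre-treatment against controls 1 and 2 (2 and 3) or all controls (3 and 3). HAS2 lies between 2.59 and 3.62, TNC between -1.06 and -0.80, and HAS3, TNR, VCAN, BCAN and NCAN lie lower after pre-treatment than after co-treatment.

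The controls of the 2 experiments were compared with the same test. The rule that chose the genes used the same control libraries, though not this contrast. The experiment and any batch cannot be told apart in it. The log2FC of pre-treatment against co-treatment controls was 1.12 (0.36) for VCAN, 0.87 (0.43) for TNR, 0.61 (0.36) for TNC, 0.58 (0.28) for HAS3, 0.46 (0.33) for NCAN, 0.10 (0.23) for BCAN and -0.34 (0.80) for HAS2. None of the 7 was called by edgeR's quasi-likelihood test (smallest FDR 0.692), by the exact test or by DESeq2, and 1 of the 7 (VCAN) had an unadjusted p under 0.05. The quasi-likelihood test called 0% of 23739 genes, of which 1551 had an unadjusted p under 0.05, while the exact test called 10 and DESeq2 26. None had groups that did not overlap, against 10.2% of genes. Without pre-treatment control 3, 2 of the 7 were called, TNR (1.21, FDR 0.0128) and VCAN (1.40, FDR 0.00889). The share of all genes called without control 3 is not given here, so this count is not read as particular to these 2 genes. Without control 3 the levels of TNR and VCAN were thus higher in the untreated cells of the pre-treatment experiment than in those of the co-treatment experiment, and both sets of treated cells ended between 161 and 381 CPM for VCAN and between 185 and 275 CPM for TNR.

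As a description of which genes followed HAS2 and TNC most closely, log2 CPM was correlated over the 12 libraries, which share the 2 treatments and experiments, among 13780 genes with a mean log2 CPM of at least 1. The genes nearest to HAS2 were AP000479.1 (Pearson's r = 0.98), SSTR2 (0.969), a somatostatin receptor, ACTA2 (0.956), smooth muscle actin, KITLG (0.947), the KIT ligand, and RP11-54O7.3 (0.944). SSTR2 had 1.2 to 3.48 CPM in controls and 8.6 to 15.6 CPM after H2O2, and KITLG 14.4 to 33.4 CPM against 46.1 to 77.3 CPM. Like HAS2, all 5 separated the 6 treated from the 6 control libraries. The genes nearest to TNC were EFNA5 (0.966), an ephrin, SEMA5A (0.964), a semaphorin, RUNX1T1 (0.957), MAGI1 (0.946) and SPRY2 (0.943), an inhibitor of growth factor signalling. For EFNA5, the control range of 7.14 to 20.3 CPM overlapped the treated range of 5.54 to 13 CPM, as it did for TNC.

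Another 91 genes of the same pathways, in 8 lists made with earlier results of these data known, were tested across all genes. After co-treatment, 71 were tested and 1 was called, ADAMTS1, a secreted protease that cuts lecticans. It fell from 110 ± 7.66 CPM in controls to 61.7 ± 9.22 CPM (SD, n = 3), a log2FC of -0.83 (0.14; FDR 0.0168, edgeR's quasi-likelihood test). It missed the threshold without control 2 (-0.88), treated 2 (-0.85) or treated 3 (-0.72). The median log2FC of the 71 was -0.01, against -0.00095 for all genes tested. Over the 5 pre-treatment libraries, 72 were tested and 12 were called (16.7%, against 11.2% of all genes), 6 in each direction, with a median of 0.10 against 0.01. Without control 2, 5 of the 12 were called (ADAMTS5, CSPG4, LAYN, PTX3 and XYLT1), and over 6 libraries none of 71 (18 with an unadjusted p under 0.05; the exact test called 6 and DESeq2 8). Of all 24743 genes tested over 6 libraries, 2776 had an unadjusted p under 0.05, and totals for the exact test and DESeq2 are not given here. With control 3 included the 12 genes had log2FC of the same sign, with an FDR from 0.267 (ADAMTS5, 1.81) to 0.565 (ITGB6, -0.94). The values of these lists below are those over 5 libraries unless another comparison is named.

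Over these 5 libraries, 3 hyaluronan receptors and binders were called higher and none lower among 12 tested of 15. Of all genes, 2.98% were called higher and 8.23% lower. LAYN, a transmembrane hyaluronan receptor, rose from 10.2 ± 0.197 CPM (SD, n = 2) to 24.7 ± 3.8 CPM (SD, n = 3), a log2FC of 1.31 (FDR 0.00252). PTX3, a pentraxin that organises hyaluronan-rich matrix, rose from 1.01 ± 0.181 to 3.53 ± 0.267 CPM (log2FC 1.83, FDR 0.0029). CD44, the best-known hyaluronan receptor, rose from 1.17 ± 0.324 to 2.5 ± 0.544 CPM (1.11, FDR 0.0331). HMMR, the most abundant gene of this list, had a log2FC of 0.18 (FDR 0.647). After co-treatment CD44 had a log2FC of 1.17 that did not pass (FDR 0.491).

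Supply and breakdown of hyaluronan showed no calls. Of 7 sugar-nucleotide genes tested of 8, PGM3, the most abundant, had a log2FC of 0.47 (FDR 0.0337) and UAP1 of 0.41 (FDR 0.0331), under the fold threshold. Of 8 hyaluronidase and lysosomal genes tested of 10, HYAL2, the most abundant, had a log2FC of 0.17 (FDR 0.36). The medians of these lists were 0.03 and 0.14. UGDH, which makes the UDP-glucuronate that hyaluronan synthases use, had a log2FC of -0.06 (FDR 0.725) over 5 libraries and of -0.36 (FDR 0.428) after co-treatment.

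Among 5 other proteoglycans tested of 8, CSPG4 (NG2) fell from 8.85 ± 1.07 to 2.04 ± 0.63 CPM (log2FC -2.09, FDR 0.00249), and DCN (decorin) rose from 0.336 ± 0.353 to 2.63 ± 0.958 CPM (2.95, FDR 0.013). CSPG5, the most abundant of them, had a log2FC of 0.20 (FDR 0.512). Among 16 genes of chondroitin chain synthesis tested of 21, XYLT1, which attaches the first sugar of the chain to the core protein and was the most abundant, fell from 417 ± 36.1 to 116 ± 35.5 CPM (-1.82, FDR 0.00222), and the median was -0.27. Without a call, XYLT1 had a log2FC of 0.30 (FDR 0.806) after co-treatment.

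Among 11 lectican proteases and inhibitors tested of 13, ADAMTS5, the main aggrecanase, rose from 2.52 ± 0.556 to 7.28 ± 1.15 CPM (1.56, FDR 0.0044). MMP2, a gelatinase, fell from 433 ± 55.9 to 209 ± 9.34 CPM (-1.02, FDR 0.00159), and its inhibitor TIMP2 fell from 360 ± 79.5 to 163 ± 20.5 CPM (-1.11, FDR 0.00337). ADAMTS9, the most abundant, had a log2FC of -0.76 (FDR 0.00448), under the fold threshold. Among 11 binding partners of tenascins and lecticans tested of 13, FBLN1 (fibulin-1) fell from 91 ± 26.1 to 42 ± 5.99 CPM (-1.09, FDR 0.00567) and ITGB6, an integrin subunit, from 1.47 ± 0.0173 to 0.564 ± 0.082 CPM (-1.35, FDR 0.0145). TLR4, an innate immune receptor that tenascin-C can activate, rose from 0.178 ± 0.0998 to 1.46 ± 0.779 CPM (3.02, FDR 0.0136). ITGB1, the most abundant partner, had a log2FC of 0.57 (FDR 0.0418).

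**Figure D4:**
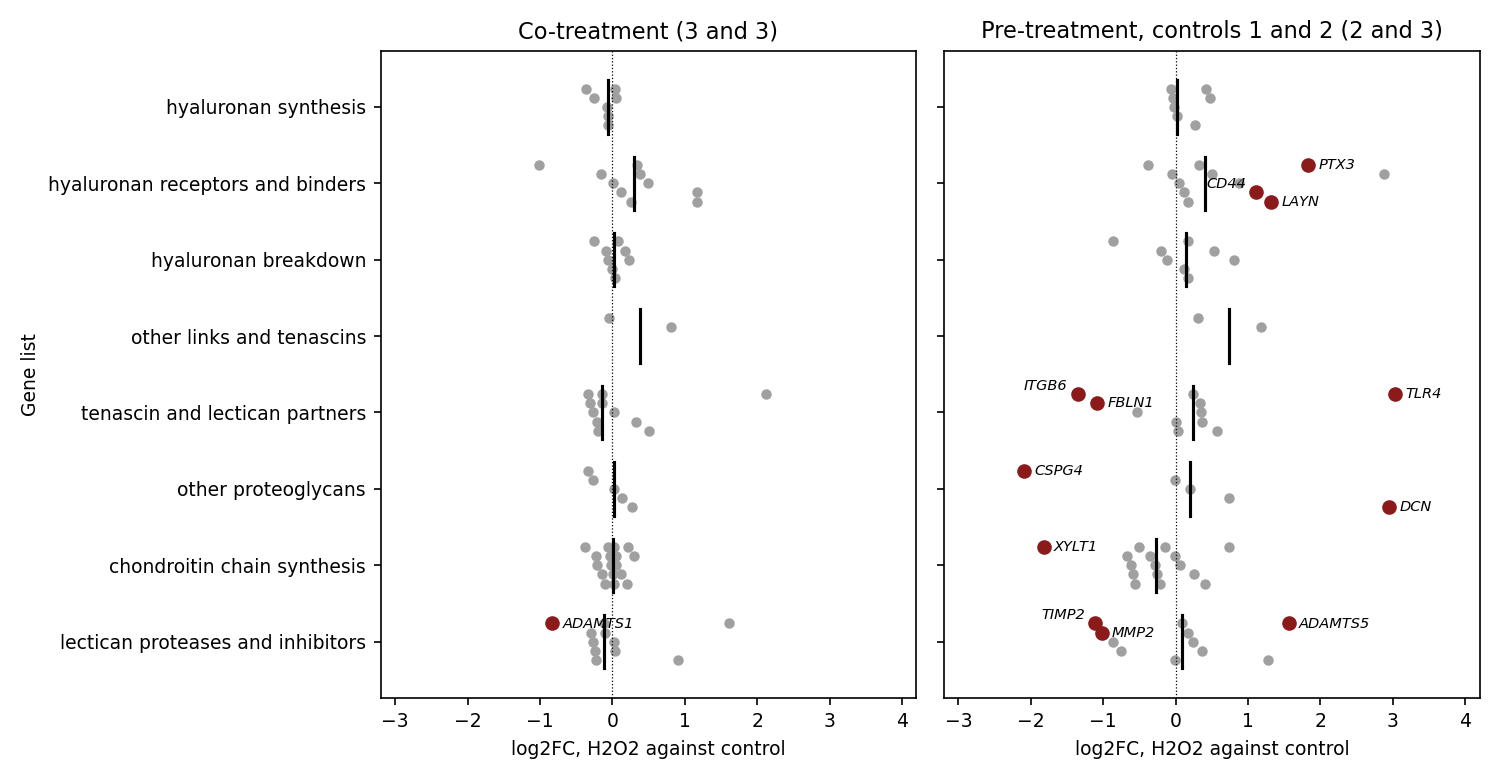
log2FC of treated against control cells for the genes of 8 matrix lists that passed the filter, after co-treatment (left) and over the 5 pre-treatment libraries (right), with called genes in dark red and named, and the list median as a black line. 1 gene was called on the left and 12 on the right, 6 in each direction.

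Markers of other cell states moved with treatment beside these genes, and their part in the results was not tested. Of 12 markers of mesenchymal or substrate-adherent neuroblastoma cells, 10 were tested after co-treatment and 1 was called, VIM (vimentin), which rose from 7.27 ± 2.25 to 16.2 ± 1.38 CPM (SD, n = 3; log2FC 1.16, FDR 0.0272). Over 5 pre-treatment libraries 4 of 11 were called higher and 0 lower, against 2.98% and 8.23% of all genes. The 4 were VIM (2.66), YAP1 (3.11), and DCN and CD44, which are also on the matrix lists. Over 6 libraries VIM alone was called (2.42, FDR 0.0442). COL1A1 and FN1 had negative log2FC over the 5 libraries without a call (-1.05, FDR 0.0567, and -0.53, FDR 0.171). After co-treatment COL1A1 had -1.65 (FDR 0.524) and FN1 0.51 (FDR 0.655). TWIST1, the most abundant of the 12, had a log2FC of -0.48 (FDR 0.124) after co-treatment and of -0.01 (FDR 0.953) over the 5 libraries. PRRX1, a defining marker, was at 0 in all co-treated cells and pre-treatment controls. It had 0.0291 CPM in co-treatment control 3 and 0.0104, 0.0148 and 0.0758 CPM in the pre-treated libraries. The summed level of the 12 was 268 to 391 CPM in co-treatment controls, 320 to 339 after co-treatment, 325 to 424 in pre-treatment controls and 332 to 347 after pre-treatment. Of 8 noradrenergic neuroblast markers the sum was 2285 to 2805 CPM in co-treatment controls and 1421 to 2028 after co-treatment, with CHGA, the most abundant, at -0.80 (FDR 0.101). It was 1596 to 2827 in pre-treatment controls and 1132 to 1797 after pre-treatment, with GATA3 (-1.44, FDR 0.0126) and DBH (-1.72, FDR 0.0259) lower over 5 libraries but not over 6 (GATA3 -1.07, FDR 0.471; DBH -1.48, FDR 0.338). TH, a defining marker of this list, was under 1 CPM in all libraries. Sums of 5 astrocyte markers (2.61 to 6.25 CPM) and 5 Schwann cell markers (5.86 to 8.14 CPM) were low throughout, with S100B on both lists and no gene called.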

How the data were processed

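RNA of 12 SH-SY5Y cultures was depleted of ribosomal RNA and sequenced as stranded paired reads. The submitters' processing notes name FastQC 0.11.8, Cutadapt 2.10, HISAT2 2.1.0, hg19 and HTSeq 0.7.2. The authors deposited 1 table of raw read counts per gene symbol and library, unfiltered and unnormalized; strand setting and annotation version are not given in the sources used here. The authors' 2 tables of fold changes and p-values were not used. The tests were run with edgeR 4.0.16 in R 4.3.3 (TMM factors, quasi-likelihood test, Benjamini-Hochberg adjustment over all genes tested). A gene was tested if enough libraries (the size of the smaller group) had a CPM no lower than 5 counts give in the shallowest library. CPM values in the text use TMM factors over all 12 libraries; fits use the libraries of their comparison. Replicates are separate samples in the labels, and p-values measure only the spread between them. Alternatives were the exact test, DESeq2 1.42.0, limma-voom (limma 3.58.1), RLE factors, library size alone, no filter, 1 fit over both experiments, a replicate block, each library left out, and, chosen after seeing the data, small RNAs left out before scaling and within-family shares. The members and gene lists were chosen with earlier results of these data known. Named list genes are, for each list and comparison, up to 3 called genes in each direction by FDR and the most abundant gene; UGDH, UAP1, HAPLN2 and repeated genes outside this rule were chosen after their values were seen. Positions and exon lengths come from GENCODE lifted to hg19. Promoter sequences and 2 marker genes are not reported here. The fits were tested on simulated data with 200 genes changed by 2 log2 units. They recovered 81% after co-treatment, with 16 false calls. Over 5 and 6 pre-treatment libraries they recovered 66.5% and 59%, with 12 and 4 false calls. Between controls it was 57%, with 9 false calls. Genes without a call can therefore still have changed.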

Additional observations from a re-analysis of the deposited data

Results flagged for a closer look

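The response to H2O2 differed between the experiments for 8 of the 91 genes of the matrix lists, not all of which could be tested, and for VCAN-AS1. The test was edgeR's interaction test over 11 libraries (all but pre-treatment control 3, FDR under 0.05). It passed 8.02% of 25668 genes, so the count of 8 is not read as a result about these lists. The log2FC after pre-treatment minus that after co-treatment was 1.01 for LAYN, 1.39 for PTX3, 2.88 for DCN and 1.01 for ADAMTS1. It was -0.95 for FBLN1, -2.42 for CSPG4, -2.18 for XYLT1, -0.97 for MMP2 and -2.87 for VCAN-AS1. With control 3 included, the same differences were 0.80, 1.00, 2.59 and 1.04, and -0.82, -1.91, -1.81, -0.68 and -2.26, and none passed (FDR 0.376 to 0.597), while 9 of 25705 genes did. The 7 members that could be tested were part of the same fit, but were selected on their treatment response, so their differences are a description without a test. Over 11 libraries they were 0.97 for HAS2, -1.09 for HAS3, -0.14 for TNC, -1.03 for TNR, -1.06 for VCAN, -0.45 for BCAN and -1.01 for NCAN. With control 3 included they were 0.51, -0.83, 0.20, -0.62, -0.71, -0.66 and -0.74.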

How the results depend on the processing

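Members called after co-treatment (1 in the reported fit) numbered 2 with no filter, edgeR's exact test, DESeq2 and small RNAs left out before scaling, 0 with limma-voom, 1 fit over both experiments and the replicate block, and 0 to 1 with each library left out. List genes called there (1) numbered 2 with DESeq2 and the exact test, 3 with no filter, 0 in 1 fit over both experiments and 0 to 3 with a library left out. Over 5 pre-treatment libraries (5 members, 12 list genes) no alternative moved a count by over 1.5 times except leaving out control 2, and with each library left out the counts ran from 3 to 4 members and from 5 to 13 list genes; leaving out a control leaves 1, assumed to vary like the treated group. Over 6 libraries (0 and 0), DESeq2 called 3 members and 8 list genes, the exact test and no filter 2 and 6 each, 1 fit over both experiments 1 member, and leave-one-out fits 0 to 5 and 0 to 12, all of them without control 3. Between controls (0 and 0), leave-one-out fits called 0 to 2 members and 0 to 6 list genes. Totals of all genes called under these alternatives are not given here, except for the exact test and DESeq2 between controls. Whether an alternative called more genes everywhere can therefore not be told from these counts.

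Residuals of equal replicate numbers correlated by 0.134, 0.0213 and -0.185 (co-treatment), 0.322 and 0.0396 (5 libraries) and -0.184, 0.0878 and -0.234 (6). So few values cannot show whether replicate numbers pair the cultures, and the reported fits used no pairing. With the replicate block, 4 members and 13 list genes were called over 5 libraries, and BCAN turned from -0.17 to 0.10.

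Of 413 member values under an alternative, 6 changed sign, and of 197 values of called list genes 0 did. Beside BCAN with the block these were VCAN and NCAN after co-treatment without control 1 (leave-one-out ranges -0.33 to 0.12 and -0.50 to 0.077), BCAN over 5 libraries without treated 3 (-0.43 to 0.070), and, between controls, HAS2 without pre-treatment control 2 (-0.84 to 0.095) and BCAN without control 3 (-0.15 to 0.22). The cause was not tested. Library size alone moved the median of all genes to -0.21 over 5 libraries, where HAS3 (-1.09) was then also called. HAS2 rests on 1 to 11 reads in a control library, which limits the size of its change. RLE factors moved no member's CPM by over 1.79%.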
